A study of Mus musculus with 4 samples.

Results

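The intervals called by S9.6 CUT&Tag in control P19 cells were set against those called in the same kind of cells without primary antibody. Each deposited peak list was reduced to its distinct intervals, and an S9.6 interval that overlapped a no-antibody interval by at least 1 bp was called shared. The S9.6 list held 1263 intervals and the no-antibody list 516, together 1779 of the 4938 intervals in the 4 lists of the series. They fell into 842 S9.6-only intervals, 421 shared intervals of the S9.6 list (425 of the no-antibody list) and 91 no-antibody-only intervals.

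P19 is a mouse embryonal carcinoma line, labelled wild-type in these libraries. The cells of both lists carried a control adenovirus (shCtrl), and the comparison holds 1 library with S9.6 and 1 library labelled as made with no antibody. Peaks of the latter carry names that start with IgG, which leaves unsettled whether it received a control antibody. A pair of further S9.6 libraries, from cells in which Ube2t was knocked down by adenovirus with either of 2 hairpins (shUbe2t #1 and #2), was used here only to see whether the same intervals were called again. These are not replicates of the control cells. Because every condition is a single library, conditions were described and not tested, and the 95% Clopper-Pearson intervals given with shares cover counting error only.

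An R-loop forms when an RNA pairs with one strand of the DNA and the other DNA strand is left unpaired. S9.6 is a monoclonal antibody that binds RNA:DNA hybrids and is widely used to map them. R-loops are known to form close to transcription starts, often at promoters rich in CpG and where the transcript is rich in G. In CUT&Tag a transposase tethered to the antibody cuts and tags nearby DNA, and without a primary antibody untethered enzyme can still cut accessible DNA. None of the libraries used here was treated to remove hybrids beforehand, per the labels, and the intervals are therefore called S9.6 intervals and not R-loops.

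The sequences below are the 250 bases before the transcription start of the 6 named genes with the highest S9.6 fold among S9.6-only intervals that overlap a promoter window. They are shown because the S9.6-only class differed from the others by its share near transcription starts. They are RefSeq sequences of GRCm38.p6 (the build that mm10 stands for), written 5′ to 3′ along the gene, with CCAAT or ATTGG and GGGCGG or CCGCCC in capitals. Pdcd10 lies at chr3:75556853-75557102 (- strand), Nr6a1 at chr2:38926462-38926711 (- strand), Wasf1 at chr10:40883284-40883533 (+ strand), Rad23b at chr4:55349792-55350041 (+ strand), Fam222b at chr11:78115376-78115625 (+ strand) and Ncl at chr1:86359456-86359705 (- strand).
Pdcd10: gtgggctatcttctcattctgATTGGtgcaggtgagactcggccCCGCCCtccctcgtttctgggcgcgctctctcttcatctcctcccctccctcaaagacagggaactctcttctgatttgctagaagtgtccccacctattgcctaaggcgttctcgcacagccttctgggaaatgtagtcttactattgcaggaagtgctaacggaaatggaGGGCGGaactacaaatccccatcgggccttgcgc
Nr6a1: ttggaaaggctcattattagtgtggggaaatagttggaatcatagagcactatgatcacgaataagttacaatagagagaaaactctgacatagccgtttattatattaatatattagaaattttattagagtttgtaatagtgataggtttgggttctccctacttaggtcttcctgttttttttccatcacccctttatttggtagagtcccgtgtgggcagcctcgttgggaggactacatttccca
Wasf1: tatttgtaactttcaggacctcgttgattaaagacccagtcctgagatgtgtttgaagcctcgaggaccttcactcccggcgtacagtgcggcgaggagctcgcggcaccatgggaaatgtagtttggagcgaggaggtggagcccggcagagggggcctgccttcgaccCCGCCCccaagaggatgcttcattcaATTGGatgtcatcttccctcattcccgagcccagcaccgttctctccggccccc
Rad23b: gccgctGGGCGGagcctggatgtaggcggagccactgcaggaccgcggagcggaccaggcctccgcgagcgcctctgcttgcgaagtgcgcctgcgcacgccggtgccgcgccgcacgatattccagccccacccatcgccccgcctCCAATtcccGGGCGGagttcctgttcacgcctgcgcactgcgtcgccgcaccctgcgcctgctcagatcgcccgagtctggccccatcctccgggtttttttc
Fam222b: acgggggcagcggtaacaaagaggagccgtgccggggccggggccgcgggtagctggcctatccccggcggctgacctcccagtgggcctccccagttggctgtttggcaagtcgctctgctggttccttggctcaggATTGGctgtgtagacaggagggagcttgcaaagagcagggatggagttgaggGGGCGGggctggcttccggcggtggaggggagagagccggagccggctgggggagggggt
Ncl: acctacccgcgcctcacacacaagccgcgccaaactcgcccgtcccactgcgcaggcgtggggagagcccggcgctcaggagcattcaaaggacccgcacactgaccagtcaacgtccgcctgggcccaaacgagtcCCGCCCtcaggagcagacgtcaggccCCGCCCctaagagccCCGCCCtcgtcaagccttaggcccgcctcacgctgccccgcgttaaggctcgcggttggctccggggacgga
In 5 of these 6 sequences the GC box GGGCGG, a site known to be bound by Sp1-family factors, occurs at least 1 time on either strand. CCAAT, the box known to be bound by NF-Y, occurs 1 time each in Pdcd10, Wasf1, Rad23b and Fam222b. The Nr6a1 sequence holds neither, and its 300-base window was 42.3% GC against 70.7% for Rad23b.

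The S9.6 library was the deeper of both. Summit fragments and their local background were recovered from the deposited fold and p of each summit, and at least 98.39% of them came out as whole fragments within 0.05. The lowest background of each library was 1.31 fragments with S9.6 and 0.772 without antibody, so the no-antibody library had 58.7% of the depth. At its lowest background 7 fragments were called without antibody, which corresponds to 11.9 at the depth of the S9.6 library. Of the 842 S9.6-only intervals, 331 (39.3%, 36 to 42.7) carried enough signal to be called at the no-antibody depth, while the other 511 fell short of its threshold after scaling. A missing call without antibody therefore says little for these 511, and for the 331 counting error near the threshold was not excluded either. The measure is approximate, since 386 of the 421 shared intervals (91.7%), all called without antibody, reached it. Of the 331, 49.55% and 53.5% were called again in shUbe2t #1 and #2, whose depths were 92.2% and 93.6% of the control S9.6 library. Among all 717 S9.6 intervals that could be called at that depth, 53.8% (50.1 to 57.5) met a no-antibody interval. Over the whole list that share was 33.3% (30.7 to 36). In the other direction 82.4% (78.8 to 85.6) of the no-antibody intervals met an S9.6 interval.

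The strongest intervals of the S9.6 list were nearly all present without antibody. Of the 100 intervals with the highest fold of summit over local background, 99 were shared, as were 89 of the next 100 and 52 of the 100 after those. The share was lowest, 11.5% (7.43 to 16.8), among the 200 intervals with folds between 4.42 and 4.93. Below these it was 14% (9.51 to 19.6) in the next 200 and 20.2% (15.5 to 25.5) in the last 263. The exception within the first 100 lay in the body of Il1rapl1 on chromosome X, at chrX:87238257-87238521. Il1rapl1 encodes a synaptic adhesion receptor of the interleukin-1 receptor family. This interval had 48 fragments over a background of 1.44, a fold of 20.1, and no call in the no-antibody library. It was called again with 70 fragments in shUbe2t #1 and with 55 in shUbe2t #2.

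S9.6-only intervals were weaker and narrower than shared ones within the same list. Their fold ran from 1.6 over a median of 4.54 to 20.1, and their summits held 8 to 124 fragments with a median of 14. Shared intervals of that list had a median fold of 7.63 and a highest of 42.8, and a median of 41 fragments. The median width was 245 bp for S9.6-only and 373 bp for shared intervals. No-antibody-only intervals had 7 to 60 fragments with a median of 10, and 200 bp was their median width. In the shallower no-antibody list these were again the weak end, since its shared intervals had a median of 26 fragments.

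S9.6-only intervals lay at gene ends far more often than the other classes. Within 1000 bp of either end of an annotated gene were 381 of 816 placed S9.6-only intervals, or 46.7% (43.2 to 50.2). An interval of that width placed anywhere on the same chromosomes would lie there in 6.69% of positions. For shared intervals the count was 59 of 379, or 15.6% (12.1 to 19.6). For no-antibody-only intervals it was 10 of 89, or 11.2% (5.52 to 19.7). The binomial interval of the S9.6-only share did not overlap those of the other classes. In gene bodies lay 27.8% of S9.6-only, 35.1% of shared and 47.2% of no-antibody-only intervals, and between genes 25.5%, 49.3% and 41.6%. Among the 320 placed S9.6-only intervals callable at the no-antibody depth, 45% (39.5 to 50.6) were at gene ends, close to the share of the whole class.

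**Figure D1:**
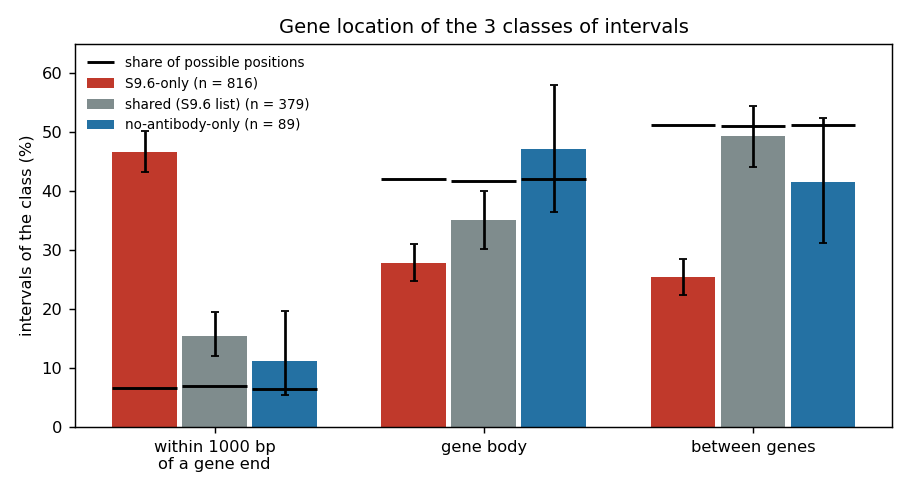
Share of intervals (%) within 1000 bp of a gene end, in gene bodies and between genes, for S9.6-only, shared and no-antibody-only intervals; error bars are 95% Clopper-Pearson intervals and black lines the share of possible positions. S9.6-only intervals stand at 46.7% at gene ends, against 15.6% and 11.2% for the other classes.

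Where the strand could be read, the gene ends were mostly starts and rarely 3′ ends. With the strand known from the RefSeq promoter table, which holds none for chromosome 18, 300 of 792 S9.6-only summits (37.9%, 34.5 to 41.4) were within 1000 bp of a transcription start. They made up 271 of the 365 S9.6-only intervals at gene ends (74.2%) and 29 of those in gene bodies. Only 10 of the 792 were within 1000 bp of a 3′ end and of no start, and the remaining gene ends belong to genes whose start was not in the table or to intervals with the summit farther away. Shared summits were near a start in 19 of 368 cases (5.16%, 3.14 to 7.95) and no-antibody-only summits in 6 of 86 (6.98%, 2.6 to 14.6). A position taken anywhere on these chromosomes was that close to a start in 2.13% of cases.

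The S9.6-only summits were centred just upstream of the start. Of the 300 near a start, 203 (67.7%, 62 to 72.9) lay upstream of it and 156 lay 1 to 250 bp upstream. Their median position was -64.5 bp, with quartiles at -174 and 47.5 bp. The 100 bp before the start held 86 summits and the 100 bp after it 39. A divergent gene would place the upstream side of one start inside another transcript. Starts with no divergent partner in the promoter table were therefore taken alone, and there 168 of 239 summits (70.3%, 64.1 to 76) were upstream. That table holds 27025 of 49939 placed genes, so partners missing from it were not seen.

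**Figure D2:**
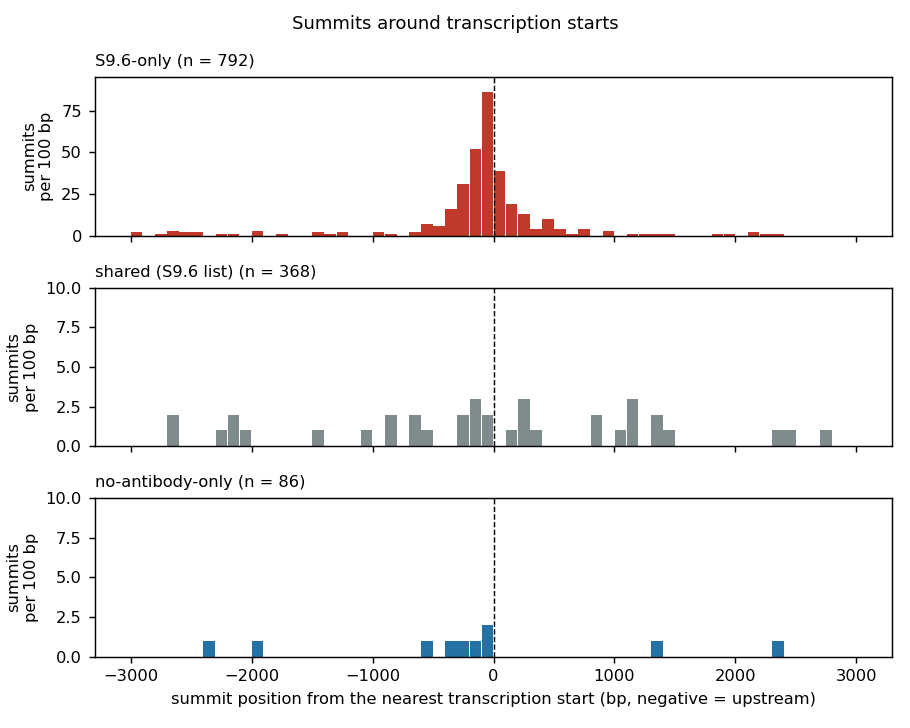
Number of summits per 100 bp against their position from the nearest transcription start (bp, negative is upstream, dashed line at the start), for each class; the vertical scale differs between the upper panel and the others. S9.6-only summits form a peak just before the start with 86 summits in the last 100 bp, and the other classes show at most 3 in any such bin.

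Within the S9.6-only class, 728 of 49939 placed genes (1.46%) held an interval in their body or within 1000 bp, and 566 of 21883 protein-coding genes (2.59%) did. Shared intervals touched 193 genes (0.386%), 122 of them protein-coding (0.558%), and no-antibody-only intervals 57 (0.114%), 40 of them protein-coding (0.183%). Most genes of the S9.6-only class were therefore protein-coding. Long noncoding RNA genes held one in 0.762% of cases and pseudogenes in 0.332%.

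With Gm and Rik names set last, the strongest S9.6-only intervals at gene ends belonged to genes of varied function. The highest fold of the class at a gene end, 11.9, was at none of the genes named here. Pdcd10, which encodes a scaffold protein known from cerebral cavernous malformation, had 21 fragments over 1.66 (fold 8.27) with its summit 310 bp upstream of the start. It shares this promoter with Serpini1, and it was called in shUbe2t #1 with 14 fragments and not in shUbe2t #2. Rab30, a small GTPase of the Golgi, had 19 fragments, and was called in both knockdown libraries with 14 and 16. Rad23b, a partner of XPC in nucleotide excision repair, had 19 fragments 211 bp upstream of its start and 15 and 16 in the knockdown libraries. These 3 promoters differ in that only the latter pair was called in all 3 S9.6 libraries.

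Other strong calls were found in the control S9.6 library alone. The summit at Nr6a1, an orphan nuclear receptor known to repress pluripotency genes as embryonal cells differentiate, held 20 fragments 39 bp after the start. At Wasf1, an actin regulator, 18 fragments stood 6 bp before the start. Clcn3, a chloride-proton exchanger, had 14 fragments and Mcee, the methylmalonyl-CoA epimerase, 16. None of these 4 was called in either knockdown library or without antibody, although each reached the no-antibody threshold after scaling. With so few fragments, counting error was not excluded for these missing calls. Ncl (nucleolin, 17 fragments) and the thioredoxin reductase Txnrd3 (19 fragments) were called again in shUbe2t #2 only, with 12 and 17.

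Rnf41, which encodes a RING-type ubiquitin ligase, had S9.6-only intervals at both of its ends. The one at the start, shared with the divergent Nabp2, had a summit 109 bp upstream of Rnf41 and 17 fragments. The one at the far end, chr10:128441775-128442037, was stronger with 26 fragments (fold 8.33), and knockdown libraries had 17 and 23 there. The 2 remaining genes of the 12 named for their folds, with Gm and Rik names set last, are small RNA genes in repeated families. Reads there may come from near-identical copies. They were the 5S ribosomal RNA gene n-R5s100, with 20 fragments, and Mir6546, beside a group of transfer RNA genes, with 31. Other 5S genes held shared intervals with up to 67 fragments, so the 5S cluster was called with and without antibody.

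In gene bodies, with Gm and Rik names set last, the leading intervals after Il1rapl1 lay in Vmn2r-ps17, a vomeronasal receptor pseudogene (19 fragments), and in Ppfibp2, a liprin (24 fragments). The Ppfibp2 summit was 493 bp upstream of an annotated start inside the gene, and the knockdown libraries held 27 and 26 fragments there. Dock2, a guanine nucleotide exchange factor known from leukocytes, had 20 fragments, Cmtm6 had 18 and the lipoprotein receptor Lrp1b 15. Apart from Cmtm6, all of these were called in both knockdown libraries. Between genes the highest S9.6-only fold was 12.2, at chr9:81225000-81225292, with 31 fragments and again 30 and 29 in the knockdown libraries. It was followed by chr1:122357078-122357322 (25 fragments, then 32 and 41) and by an interval on chromosome 18 (26 fragments, then 27 and 25).

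The gene lists were chosen with earlier results of these data known, so their shares are descriptions and not independent of the data. By function, the genes listed as highly transcribed housekeeping genes held S9.6-only intervals in 6 of 35 cases, or 17.1% beside the 2.59% of all protein-coding genes. All 6 intervals lay at gene ends. None of the 35 held a shared or a no-antibody-only interval, beside 0.558% and 0.183% of all protein-coding genes, and 35 genes are too few to tell from that background. The strongest were at Ncl (17 fragments), at Hspa8, a constitutive heat shock chaperone (13), and at Hnrnpa2b1, an RNA-binding protein (15). The Hnrnpa2b1 interval, 137 bp upstream of its start, is also the promoter of Cbx3, a heterochromatin protein. The others, named after their values were seen, were Tuba1a (10), Eef1a1 (15) and Eno1 (12).

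Common fragile site and very long genes held S9.6-only intervals in 6 of 29 cases, or 20.7% beside 1.46% of all placed genes and 2.59% of protein-coding ones. These lay elsewhere. Il1rapl1, Lrp1b and Dlg2 led the list, and of the 6 only that of Lsamp was at a gene end. No-antibody-only intervals were found in 2 of the 29 (6.9%, beside 0.114% of all placed and 0.183% of protein-coding genes), among them Wwox with 8 fragments. The list was made of long genes, and the part of length in these counts was not tested. Like the other lists, it was chosen with earlier results of these data known.

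The other lists stood closer to the background of 1.46% of all placed and 2.59% of protein-coding genes. Zinc finger protein genes held S9.6-only intervals in 17 of 472 cases (3.6%), led by Zfp91, Zfp868 and Zfp78, all at gene ends. Several others belonged to a cluster of zinc finger genes on chromosome 4. R-loop processing factors held them in 2 of 38, the transcription termination factor Pcf11 and the arginine methyltransferase Carm1. DNA replication and cell cycle genes held them in 2 of 55, Cdk4 and Ccne2, and chromatin regulators in 2 of 52, Cbx3 and Hdac2. Among splicing and RNA processing genes they were 2 of 54, Sf3b3 and Hnrnpf, and among cytosolic ribosomal protein genes 2 of 85, Rpl37 and Rpl4. The Fanconi anaemia and crosslink repair list had Slx4 alone of 32, with 12 fragments. Ubiquitin E2, RNF and USP genes had 5 of 181, led by Rnf41, Usp20 and Usp22.

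Of the pluripotency and embryonal carcinoma markers, 1 of 34 (Nr6a1, 2.94%) held an S9.6-only interval and none of 26 differentiation markers did. The background was 1.46% of all placed and 2.59% of protein-coding genes, and lists this short cannot be told from it. Peak lists do not measure transcripts, so the line could not be checked by these markers. Immediate early and p53 response genes had 0 of 35, likewise too few genes to tell from that background. Olfactory and vomeronasal receptor genes had 1 of 1466, which was Olfr318, and at 0.0682% stood below that background. Imprinted genes and small nucleolar RNA host genes had 1 of 35 (2.86%) and 1 of 28 (3.57%), in both cases the long transcript Snhg14, which also held shared intervals. The histone gene list had H2az2 of 75 genes (1.33%).

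The promoter sequences under S9.6-only intervals were rich in GC and CpG. Of 32851 promoter windows of 300 bases (250 before and 50 after a start), 316 (0.962%) overlapped an S9.6-only interval, against 17 (0.0517%) for shared and 5 (0.0152%) for no-antibody-only intervals. The median GC content was 65% in the 316 windows, 52.7% in all windows and 56.3% in those of protein-coding genes. The median number of CpG dinucleotides was 23.5, against 7 and 13. A CpG observed-to-expected ratio of at least 0.6 with at least 50% GC, a composition often used to mark CpG islands, was met by 85.4% (81.1 to 89.1) of the windows, against 33.5% and 45.1%. Windows of the other classes were few. The 17 shared windows had medians of 63% GC and 20 CpG, and the 5 no-antibody-only windows 67.7% and 18. High GC was therefore not seen in the S9.6-only class alone.

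The relation to CpG was not a steady rise. Protein-coding windows with 0 to 9 CpG held an S9.6-only interval in 0.12% of cases, those with 10 to 19 in 1.42% and those with 20 to 29 in 3.24% (2.73 to 3.81). At 30 to 39 the share was 2.77%, and with 40 or more it was 0.74% (0.32 to 1.45), in 8 of 1081 windows. The windows densest in CpG were thus occupied less often than those in the middle. Overlapping windows of one gene, and both windows of a divergent pair, can be counted for the same interval.

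**Figure D3:**
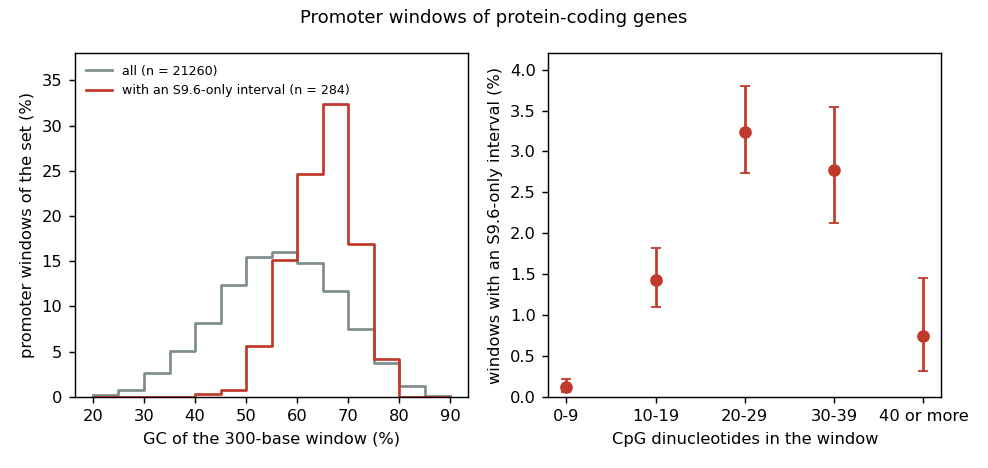
Left, distribution of the GC content (%) of 300-base promoter windows for all protein-coding genes (grey) and for those that overlap an S9.6-only interval (red); right, share of windows (%) with an S9.6-only interval by number of CpG dinucleotides, with 95% Clopper-Pearson intervals. Occupied windows are shifted to high GC, and the share is highest at 20 to 29 CpG with 3.24%.

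GGGCGG, searched on both strands, was found in 82.3% (77.6 to 86.3) of the S9.6-only windows, in 35.7% of all windows and in 46.2% of protein-coding ones. CCAAT on both strands was in 57.3% (51.6 to 62.8), against 37.4% and 38.2%. TATAAA on the strand of the gene was in 2.21% (0.895 to 4.51), against 8.32% and 8.26%. Runs of G on that strand (GGGG) were in 85.4% and runs of C (CCCC) in 80.7%, against 69% and 66.6% of all windows. G did not outweigh C on the gene's strand more often than elsewhere, since 52.5% (46.9 to 58.1) of S9.6-only windows and 52.6% of all windows had more G than C. Among the 17 shared windows GGGCGG was in 58.8% (32.9 to 81.6) and CCAAT in 47.1% (23 to 72.2). Of the 5 no-antibody-only windows, 4 held GGGCGG and 2 CCAAT. A match of letters is a description and not a site.

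Divergent promoters, where starts of opposite strands lie within 1000 bp, were common among them. After windows that lie together were joined into clusters of starts, 56 of 245 clusters with an S9.6-only interval (22.9%, 17.8 to 28.6) were divergent, against 6.02% of all clusters and 8.5% of those with a protein-coding gene. Put the other way, 3.39% (2.57 to 4.37) of divergent clusters and 0.732% (0.631 to 0.843) of the others held an S9.6-only interval. Pdcd10, Wasf1 and Ncl among the printed sequences are divergent. Counted by window, 35.1% of S9.6-only and 35.3% of the 17 shared windows were divergent, against 11.35% of all windows. Of the 5 no-antibody-only windows 0 were.

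Some S9.6-only intervals lay in dense clusters, which had a lower share at gene ends than the rest of the class. Windows of 1 Mb with at least 5 of them numbered 17 and held 152 of 816 (18.6%). Inside these windows 21.7% of S9.6-only intervals were at gene ends, against 52.4% of the 664 outside. The densest was chr8:20000001-21000000 with 23 S9.6-only and 14 shared intervals, followed by chr5:15000001-16000000 with 18 and 30. A window on chromosome 4 (chr4:146000001-147000000) held 15, and Zfp993 there held 7 by itself. On chromosome 11, Sfi1, which encodes a centrin-binding protein, held 8 S9.6-only and 4 shared intervals.

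The remaining genes with 3 or more S9.6-only intervals were mostly of the same windows or of gene families. Gm21119 on chromosome 8 held 5, and 4 each were in 9530057J20Rik on that chromosome, Gm21154 on chromosome 14, Vmn2r-ps17 on chromosome 4 and Snhg14 on chromosome 7. With 3 each there were 4930467E23Rik, Gm8032, Gm5622, Gm13165, Vmn2r-ps16, Zfp978, Speer4cos and LOC115490388. Family members of similar sequence can share reads, so the place of these intervals among copies is uncertain.

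The knockdown libraries, which took no part in making the classes, called S9.6-only intervals again in a location-dependent share. Overall 34.4% (31.2 to 37.8) of the 842 met an interval of shUbe2t #1 and 38.1% (34.8 to 41.5) one of shUbe2t #2, and 24.4% met both. At gene ends the shares were 42.3% (37.2 to 47.4) and 48.3% (43.2 to 53.4). Between genes they were 24.5% (18.8 to 30.9) and 26% (20.1 to 32.5). At like signal the share was higher at gene ends than between genes in each range of fragments, by amounts that varied. With 8 to 11 fragments the shares were 22.6% and 31.2% at gene ends and 7.04% and 9.86% between genes, and with 12 to 14 they were 43.1% and 46.7% against 9.76% and 17.1%. With 15 to 20 fragments they were 51.6% and 59% against 38.8% and 28.6%. With 21 to 40 they were 58.3% (36.6 to 77.9) and 62.5% (40.6 to 81.2) against 44.7% (28.6 to 61.7) and 52.6% (35.8 to 69), with overlapping intervals. For shUbe2t #1 the intervals also overlapped at 8 to 11 and at 15 to 20 fragments. In gene bodies the shares were 16.25% and 10% with 8 to 11 fragments and 19.6% and 27.5% with 12 to 14. They came near those of gene ends with 15 to 20 (44.4% and 52.4%) and with 21 to 40 (55.6% and 59.3%). Shared intervals were called again in 92.2% and 90.7% of cases, but they held more fragments. With 15 to 20 fragments their share was 72.9% in each library, against 46.1% and 51.0% of all S9.6-only intervals. With 21 to 40 it was 95.9% and 90.2%, against 51.1% and 56.5%. No-antibody-only intervals were called again in 18.7% (11.3 to 28.2) and 22% (14 to 31.9). The 10 of these at gene ends were called again in 5 and 7 cases (50%, 18.7 to 81.3, and 70%, 34.75 to 93.3). Between genes the share was 18.9% (7.96 to 35.2) in each knockdown library. Gene ends thus had the higher share in this class as well, but on few intervals and with overlapping binomial intervals.

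**Figure D4:**
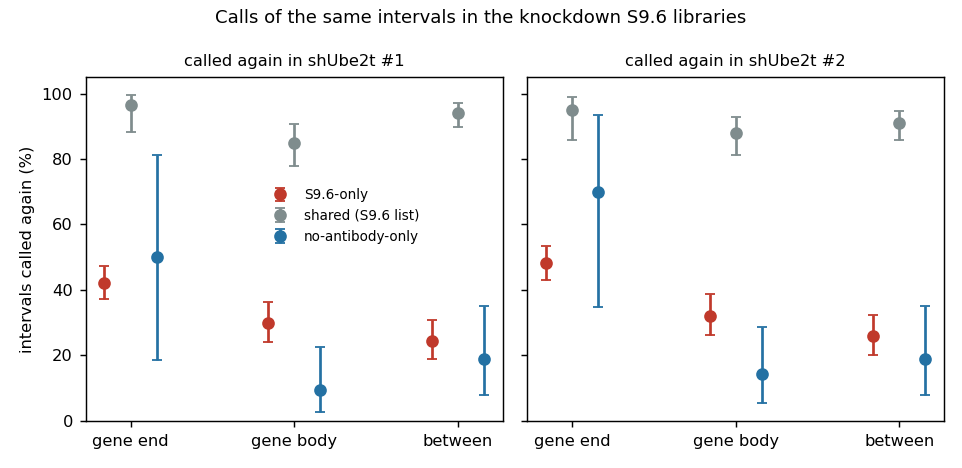
Share of intervals (%) that overlap an interval of the shUbe2t #1 library (left) or the shUbe2t #2 library (right), by class and gene location, with 95% Clopper-Pearson intervals. S9.6-only intervals at gene ends were called again in 42.3% and 48.3% of cases, those between genes in 24.5% and 26%, and shared intervals in most cases at each location.

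A set of 121 S9.6-only intervals was both callable at the no-antibody depth and called in both knockdown libraries. Of its 118 placed intervals, 60 (50.9%, 41.5 to 60.2) were at gene ends, and 49 of 115 had their summit within 1000 bp of a start. The strongest at starts, after Ppfibp2, Rab30 and Rad23b, were Fam222b with 23, 19 and 23 fragments in shCtrl, shUbe2t #1 and shUbe2t #2, and Rab1a, a small GTPase of early secretion, with 23, 21 and 20. Dut, the dUTPase of nucleotide metabolism, had 16, 18 and 16. Rab1a, Dut and, above, Nabp2 were named after their values were seen.

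Signal at shared intervals was compared between both libraries after scaling for depth. A shared interval had to be called in the shallower no-antibody library, which leaves out places where S9.6 alone was called, so the ratios below describe this class and its choice bears on their level. Summit fragments divided by the lowest background of the library gave a ratio of S9.6 to no antibody with a median of 0.837 (95% order-statistic interval 0.807 to 0.88, SD 0.33, n = 415 intervals). The ratio was above 1 at 142 of them and above 2 at 3. At gene ends the median was 1.09 (0.907 to 1.17, n = 58), in gene bodies 0.784 (0.745 to 0.845, n = 132) and between genes 0.827 (0.769 to 0.903, n = 183). Each library is 1 sample, so the ratios describe this pair of libraries.

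**Figure D5:**
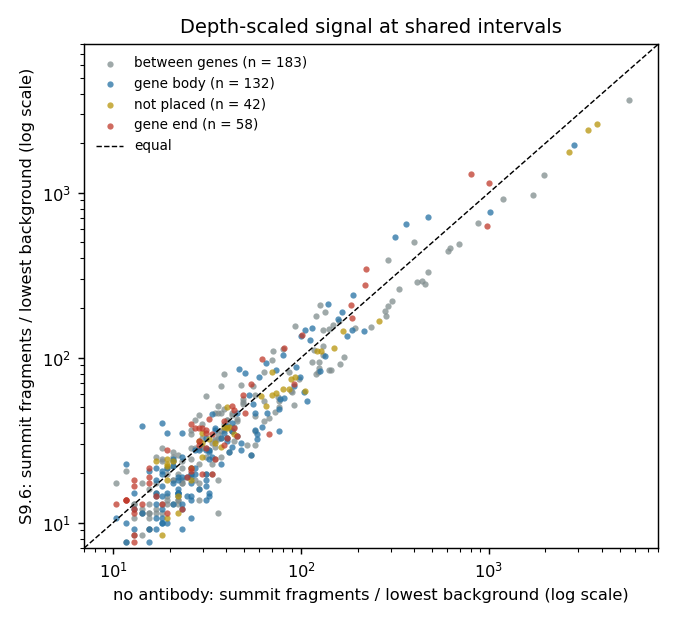
Summit fragments divided by the lowest background of the library at shared intervals, without antibody (horizontal, log scale) and with S9.6 (vertical, log scale), 1 point per interval and coloured by gene location; the dashed line marks equal values. Points lie near the line over the whole range, with a median ratio of 0.837 and 3 points above a ratio of 2.

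The shared intervals with the highest fold, Gm and Rik names set last, differed in how the no-antibody library stood to the S9.6 library. Of the 6 genes, 4 held theirs in the gene body, and Mir6236 and Slc22a29 at a gene end. In Chl1, a neural cell adhesion gene, 2567 fragments (fold 42.8) stood in the S9.6 library and 2187 (fold 43.5) in the no-antibody library. The shUbe2t #1 and #2 libraries had 2552 and 2358 there. Efna5, which encodes ephrin-A5, had 194 and 145, and Cmss1 851 and 279. Stap2, a signalling adaptor, had 199 with S9.6 and 88 without antibody, with a summit 278 bp upstream of an annotated start. Slc22a29 had 130 and 48, and Mir6236 276 and 143. After scaling for depth the ratio of S9.6 to no antibody ran from 0.689 at Chl1 to 1.79 at Cmss1. Between genes the highest was chrX:143482906-143483209 with 384 fragments with S9.6 and 342 without antibody. It was followed by chr9:24541916-24542259 (379 and 319) and chr12:120028609-120029014 (254 and 216).

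No-antibody-only intervals were few and rested on few fragments. The strongest in genes lay in the body of Appl1, an endosomal adaptor, with 23 fragments over 1.38 (fold 10.1), and this place was called in both knockdown libraries with 15 and 31 fragments. Ston1 (15 fragments), Mertk, a receptor tyrosine kinase (15), and Vipr2, a neuropeptide receptor (14), were called in no S9.6 library. Dab2 (14) and Setd4 (13) were called in shUbe2t #2. Between genes chr7:10284929-10285201 had 15 fragments and was called in shUbe2t #2 with 21. Both knockdown libraries called chr3:131846836-131847088 (21 fragments, then 20 and 16) and chr8:76344723-76344985 (14, then 11 and 10). The 10 at gene ends included the promoters of Ankrd10, Acadm, Nr2c2, Tc2n and Zfyve19, named after their values were seen, and all 10 were under a fold of 6.

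Being without a counterpart did not always mean an empty place in the other list. At Tc2n the no-antibody interval chr12:101718732-101718943 and an S9.6-only interval, chr12:101718463-101718688, lay next to each other at the same start without overlapping, and both had a class of their own by the rule. Within 500 bp of an interval of the other list lay 16 of 842 S9.6-only intervals (1.9%, 1.09 to 3.07) and 7 of 91 no-antibody-only intervals (7.69%, 3.15 to 15.2). At Ankrd10 the no-antibody library had 11 fragments, and the knockdown S9.6 libraries had 22 and 19 where the control S9.6 library had no call. Promoters were thus present in all classes, at very different shares.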

How the data were processed

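CUT&Tag libraries of P19 cells were amplified for 11 PCR cycles, per the labels. The submitters' processing notes name mm10, MACS2 2.1.2, Trimmomatic and Bowtie, the last with version 0.7.12. How duplicates were handled and which q threshold was set is not given in the sources used here. The deposited peak lists give each summit's fold over local background as a ratio, its p and q as −log10 values and a score, all by the authors, with the lists called separately; the score was not used for any result. Folds were ranked within a list only.

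Summits of one interval were reduced to the one with the best p, giving 1263 intervals from 1443 S9.6 summits and 516 from 620 no-antibody summits. Fragments and background were solved from fold and p, taking fold as the ratio after adding 1 to each and p as a Poisson tail, which was tested on simulated data. Callable at the no-antibody depth means that fragments and background, scaled to that depth, reach its lowest deposited p. Intervals on unplaced sequence or the mitochondrial genome (68 and 44, of which 3 in each list were mitochondrial) entered overlaps, not locations. Genes (49939 placed) and promoter windows (32851, of 27025 genes, none on chromosome 18) came from RefSeq tables of GRCm38.p6. The share of possible positions takes no account of mappability. Python 3.11.15, numpy 2.4.6, pandas 2.3.3 and scipy 1.17.1 were used.

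Named were the genes with the highest fold (12 at gene ends and 6 in bodies for S9.6-only, 6 shared, 6 no-antibody-only), genes with 3 or more S9.6-only intervals, up to 3 members a list, the 3 strongest intervals of each class between genes and the genes of the printed promoters. Gm and Rik names came last. Some genes are not reported here by name. Partner genes at divergent promoters and further list members were named after their values were seen. The members and the 19 gene lists were chosen with earlier results of these data known. Depth-scaled ratios, start clusters, CpG bins, dense windows, fragment bins and the set of 121 were chosen after seeing the data. No set of replicates exists, so no test between conditions was made.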

Additional observations from a re-analysis of the deposited data

How the results depend on the processing

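No paired analysis was possible because each condition has 1 library. Of 62 alternative values, 35 stayed within the counting interval (or within 1.5 times, for a count of genes) and 27 moved. The share of S9.6 intervals that met a no-antibody interval was 61.8% for S9.6 intervals with −log10 q of at least 5, 53.8% with that limit in both lists, 69.8% with equal numbers by p and 53.8% for intervals callable at the no-antibody depth. The share of no-antibody intervals that met an S9.6 interval was 95.01% with that q limit, 90.0% with it in both lists and 70.5% with equal numbers. An overlap of 50% of the shorter interval, the summit inside, a gap of up to 500 bp and placed chromosomes alone left both shares within their intervals.

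At gene ends lay 41.2%, 54.0% and 63.6% of S9.6-only intervals with windows of 500, 2000 and 5000 bp, 38.97% with protein-coding genes, 37.8% without Gm and Rik names, 40.9% with −log10 q of at least 5 and 37.9% with starts alone. Shared intervals gave 11.4%, 23.0% and 36.4% with these windows, 6.86% with protein-coding genes, 7.65% without Gm and Rik names and 5.16% with starts alone. No-antibody-only intervals moved only at 5000 bp, to 33.7%. Under each alternative the S9.6-only share stayed the highest of the classes for which it was run. Genes at S9.6-only intervals fell from 728 to 193 with the q limit and to 214 with calls in both knockdown libraries. With the q limit, S9.6-only intervals were called again in 55.0% and 60.7% of cases, and no-antibody-only ones in 33.3% and 44.4%, of 18 intervals.

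Depth limits the S9.6-only class: 39.3% of it reached the calling threshold of the shallower no-antibody library.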
